A study of Homo sapiens with 4 samples.

Results

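Metallothioneins were measured by 11 probe sets, which name 7 genes: MT1E, MT1F, MT1G, MT1H, MT1M, MT1X and MT2A. A probe set is a group of short array probes summarised as 1 value, and the 11 are every probe set whose platform annotation names 1 of these genes, out of 54613 probe sets that are not Affymetrix controls. The study compared CD133+ with CD133- cells of SW620, a human colon cancer line, to find genes that separate populations which may differ in tumour formation and drug response. Cells were sorted on beads for CD133, single cells were grown into clones in serum-containing medium without a drug or added metal in the labels, and each clone was sorted again before total RNA was taken. Each group held 2 arrays of 1 clone (CPC1 for CD133+, CNC1 for CD133-), so the effect of CD133 status and that of the clone cannot be told apart. No label says that the 2 arrays of a clone were separate cultures. The p-values then measure no more than the spread between arrays, and this spread may be technical.

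Metallothioneins are small, cysteine-rich proteins that bind zinc and copper and take up toxic metals such as cadmium. Free zinc activates the transcription factor MTF1, which binds metal response elements in their promoters, and glucocorticoids and oxidative stress also raise their transcription. In the intestine they buffer zinc taken up from the gut, and they are often lower in colorectal tumours than in the normal mucosa.

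The genes lie in 1 cluster on chromosome 16, where the RefSeq table (GRCh38.p14) lists 16 metallothionein loci between positions 56565073 and 56684196. Of these, 7 are the genes described here. Their transcripts are closely similar, and 9 of the 11 probe sets carry the suffix _x_at, which Affymetrix gives where some probes may also match other transcripts. The 2 without it are 210472_at (MT1G) and 217546_at (MT1M). Each of the 11 names 1 gene alone in the platform annotation. For 204326_x_at that gene is MT1X, yet the transcript listed beside it belongs to MT1L, a transcribed pseudogene of the cluster, in the RefSeq table. A value of an _x_at probe set can therefore hold signal from several family members. The transcripts listed for 212859_x_at (MT1E), 217165_x_at and 213629_x_at (MT1F), 210472_at and 217546_at were not found in the RefSeq table. No transcript is listed for 216336_x_at (MT1E). The gene names of these probe sets were not checked by transcript.

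Promoters are where MTF1 acts on these genes, and the RefSeq promoter table held those of MT2A, MT1X and MT1H. The 250 bases before each start are given 5′ to 3′ on the + strand, with matches to the core of the metal response element in capitals. The core was searched as TGCACNC or TGCGCNC on both strands, so capitals on the other strand read as the reverse complement. No match overlapped another.
MT2A, chr16:56608334-56608583: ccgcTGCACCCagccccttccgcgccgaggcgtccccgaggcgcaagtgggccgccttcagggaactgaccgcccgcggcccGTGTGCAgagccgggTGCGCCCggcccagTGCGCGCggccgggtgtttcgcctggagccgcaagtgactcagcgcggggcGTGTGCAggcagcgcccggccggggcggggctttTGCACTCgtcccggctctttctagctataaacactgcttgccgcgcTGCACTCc
MT1X, chr16:56682220-56682469: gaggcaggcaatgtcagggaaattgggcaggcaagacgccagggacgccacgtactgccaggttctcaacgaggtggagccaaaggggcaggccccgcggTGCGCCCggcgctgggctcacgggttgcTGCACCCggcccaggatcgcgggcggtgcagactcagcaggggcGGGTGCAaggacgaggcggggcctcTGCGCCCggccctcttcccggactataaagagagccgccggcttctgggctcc
MT1H, chr16:56669564-56669813: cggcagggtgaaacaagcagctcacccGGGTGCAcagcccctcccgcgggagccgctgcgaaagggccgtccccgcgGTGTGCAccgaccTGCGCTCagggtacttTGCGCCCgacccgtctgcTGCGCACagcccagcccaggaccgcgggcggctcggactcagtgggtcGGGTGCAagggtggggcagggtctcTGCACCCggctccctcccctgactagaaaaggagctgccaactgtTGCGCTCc

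MT1H held 8 matches, MT2A 7 and MT1X 4. At least 1 match occurred in 24.8% of the 35116 promoter windows of the same length, at least 4 in 0.37% and at least 7 in 0.0313%. G and C made up 70.4% of the MT1H window, 73.2% of MT2A and 70.0% of MT1X. The windows counted were of any composition and included the metallothionein ones, so these are not shares among windows of like composition. In MT1X and MT1H a match on the other strand began 78 bases before the start and one on the printed strand 53 bases before it, and in MT2A the nearest counterparts began at 88 and 54 bases. MT2A and MT1X also contain TATAAA on the printed strand, as do 6.80% of windows, while MT1H does not. Of other metallothionein genes, MT1B and MT4 held 3 matches each, and the windows of the zinc exporter SLC30A1 and of MTF1 itself held 1 and 0. A match describes the letters only, and binding was not measured.

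The deposited values were log2 signals between 2.52 and 14.57, with array medians from 4.45 to 4.60. They were quantile normalized before the comparison, which set each array's median to 4.53. CD133- replicate 1 had the highest upper quartile (6.91, against 6.61 to 6.71 on the other arrays). The log2 difference between 3′ and 5′ control probe sets is a sign of RNA length. For ACTB it was largest on CD133+ replicate 2 (1.92, against 0.71 to 1.18). For GAPDH that array did not stand out, at 0.090 where the arrays ran from 0.017 to 0.097. PROM1, which encodes CD133 and checks the labels, read 8.46 and 8.73 in the CD133+ clone against 3.31 and 3.35 in the CD133- clone. Colon epithelial markers had means up to 14.09 (KRT18, a keratin), with EPCAM at 12.18, whereas the differentiation products GPA33 and LGALS4 were at 5.16 and 4.71, close to the array median. The 7 measured leukocyte markers lay between 3.46 and 5.02, and the 9 fibroblast and endothelial markers between 3.29 and 6.98. None of these 3 marker lists had a member past the threshold in limma, where 5 epithelial, 0 leukocyte and 0 fibroblast or endothelial markers had an unadjusted p under 0.05. Over the brightest probe sets of all genes, 0.329% passed and 15.9% had an unadjusted p under 0.05. Of the 5 epithelial markers, 2 were higher and 3 lower in CD133+ cells. The smallest p-values belonged to CLDN7, with a log2 difference (CD133+ minus CD133-) of 0.80 (SE 0.15, limma adjusted p = 0.0998), and VIL1 at -0.35 (SE 0.095, limma adjusted p = 0.202).

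As a family, metallothioneins showed small differences, mostly toward lower signal in CD133+ cells. The log2 difference (CD133+ minus CD133-) was negative for 10 of the 11 probe sets, where 47.3% of all probe sets were negative, and ran from -0.51 to 0.43 with a median of -0.13, against 0.015 over all probe sets. None of the 11 passed limma's threshold of an adjusted p under 0.05 over all probe sets, which 0.181% of all probe sets passed (27 higher and 72 lower, or 3 and 3 in the values as deposited). At an unadjusted p under 0.05 there were 4 of 11, 3 lower and 1 higher, where 12.7% of all probe sets reached that level (6.97% lower and 5.76% higher). The arrays of the 2 clones did not overlap in 6 of the 11, against 43.9% of all probe sets. Since the probe sets can detect one another's transcripts, their shared sign is not 11 separate observations. In bulk RNA, fewer expressing cells and less RNA per cell cannot be told apart.

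**Figure D1:**
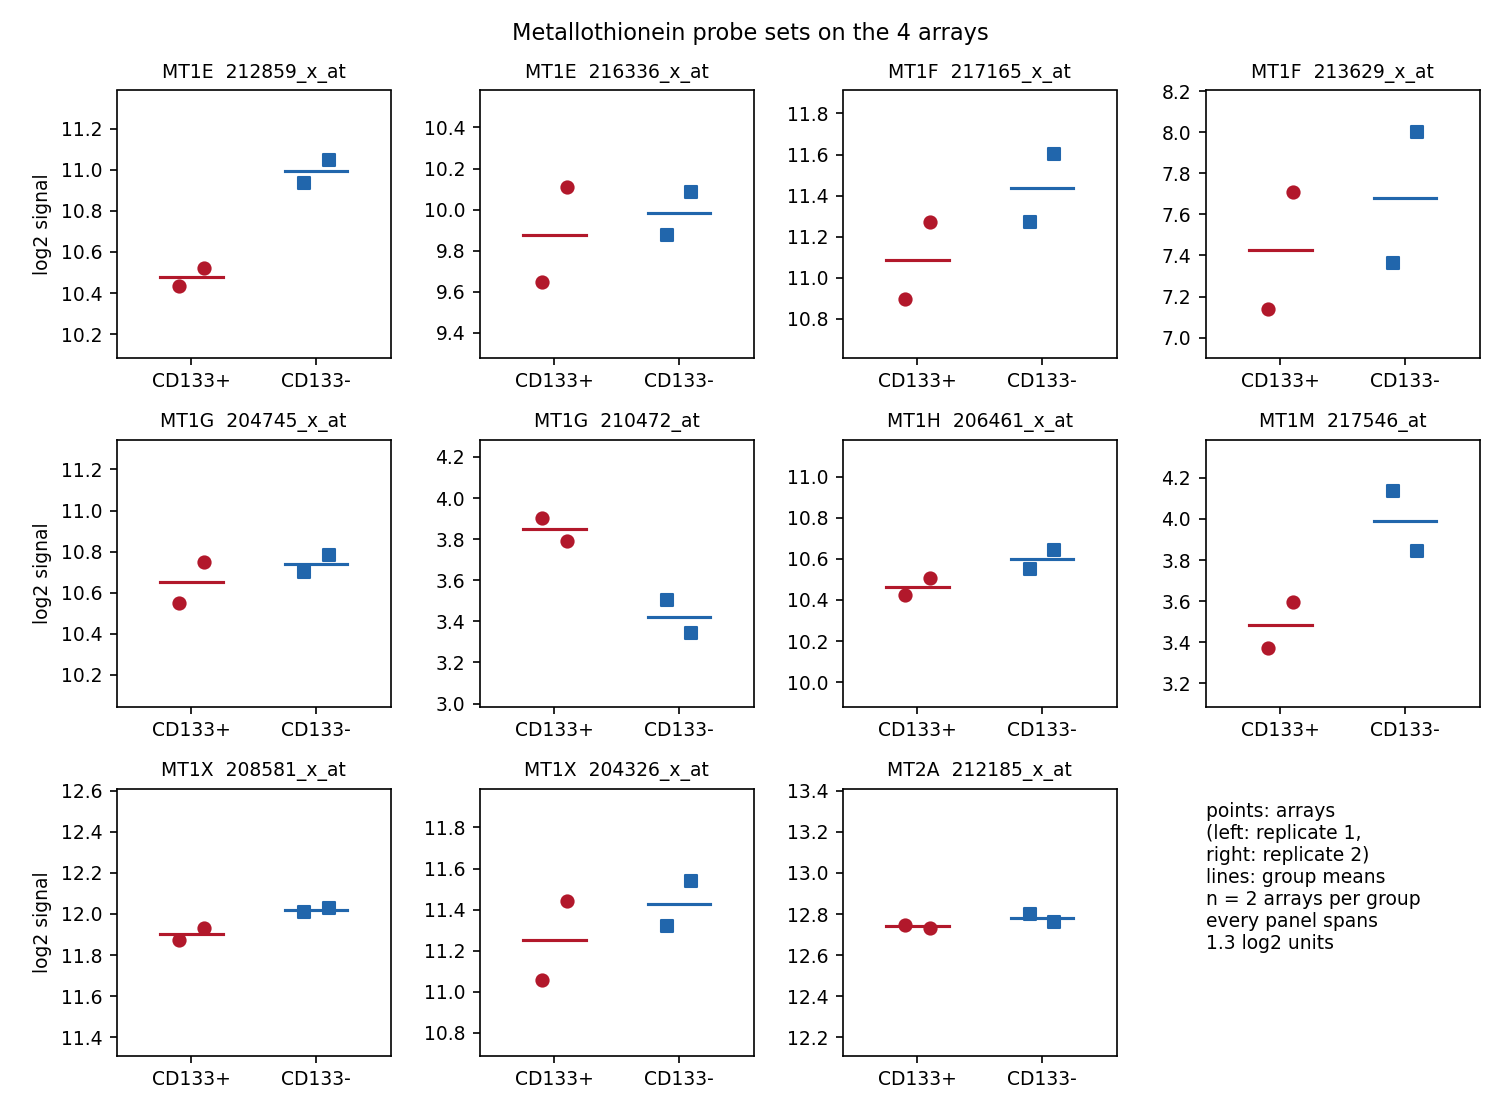
Log2 signal (vertical axis, quantile normalized) of each metallothionein probe set on the CD133+ arrays (red circles) and CD133- arrays (blue squares), with lines at the group means (n = 2 arrays per group). The clones lie apart for MT1E 212859_x_at, where CD133+ arrays sit at 10.44 and 10.52 below 10.94 and 11.05, while MT2A is nearly level.

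MT2A is the most widely expressed member of the family in human tissues. Its probe set 212185_x_at read 12.75 and 12.73 in the CD133+ clone against 12.80 and 12.76 in the CD133- clone. The groups did not overlap, but all 4 values were close together. The log2 difference was -0.039 (SE 0.054, limma adjusted p = 0.807) with a 95% interval from -0.17 to 0.087. The interval leaves out a change of 1.5-fold in either direction, as it did under all 11 alternatives.

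MT1E stood out among the genes for 1 of its 2 probe sets. On 212859_x_at the CD133+ arrays read 10.44 and 10.52 and the CD133- arrays 10.94 and 11.05. Both CD133+ arrays lay below both CD133- arrays, and the gap between the groups was larger than the gap within either. The mean was 10.48 ± 0.061 (SD, n = 2) against 10.99 ± 0.080 (SD, n = 2), a log2 difference of -0.51 (SE 0.092, 95% interval from -0.73 to -0.30), or a level 1.43-fold higher in CD133- cells. It missed the threshold over all probe sets (limma adjusted p = 0.0851).

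When each gene was represented by its brightest probe set and the adjustment ran over 19775 genes, of which 2.70% were called, MT1E passed as lower in CD133+ cells (limma adjusted p = 0.0232). With the mean of its 2 probe sets in place of the brightest, the log2 difference was -0.31 and MT1E did not pass (limma adjusted p = 0.280, with 0.885% of genes called). Over the 11 alternatives of the probe-set fit its limma adjusted p ran from 0.0132 to 0.404, with 2 passes, and the log2 difference ran from -0.62 to -0.46. One of the 2 left out CD133+ replicate 2 (limma adjusted p = 0.0365), while leaving out a CD133- array gave 0.404 and 0.189. A fit without 1 array takes its spread from the pair that remains and assumes that the lone array varies likewise. The other MT1E probe set, 216336_x_at, read 9.65 and 10.11 in the CD133+ clone against 9.88 and 10.09 in the CD133- clone. These groups overlapped, and the log2 difference of -0.10 (SE 0.16, limma adjusted p = 0.836) turned to 0.13 without CD133+ replicate 1 and to 0.0017 without CD133- replicate 2. Whether the 2 probe sets differ from each other was not tested.

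MT1F was also represented by 2 probe sets. On 217165_x_at the CD133+ arrays read 10.90 and 11.27 and the CD133- arrays 11.27 and 11.60, so that the higher CD133+ array met the lower CD133- array. The log2 difference was -0.35 (SE 0.15, limma adjusted p = 0.381). On 213629_x_at the values were 7.14 and 7.71 against 7.36 and 8.00. Here the groups overlapped and the arrays of 1 clone differed by more than the clones did, with a log2 difference of -0.26 (SE 0.27, limma adjusted p = 0.736) that turned to 0.030 without CD133+ replicate 1 and to 0.062 without CD133- replicate 2.

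MT1X has 2 probe sets, of which 208581_x_at lists its own transcript. It read 11.87 and 11.93 in the CD133+ clone against 12.01 and 12.03 in the CD133- clone. The groups did not overlap, with a log2 difference of -0.12 (SE 0.066, limma adjusted p = 0.502). The probe set that lists the MT1L pseudogene, 204326_x_at, read 11.06 and 11.44 against 11.32 and 11.54. Those groups overlapped, and the log2 difference of -0.18 (SE 0.13, limma adjusted p = 0.624) was 0.014 without CD133+ replicate 1.

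MT1H read 10.42 and 10.51 in the CD133+ clone against 10.55 and 10.64 in the CD133- clone. The CD133+ arrays lay just below, with a log2 difference of -0.13 (SE 0.094, limma adjusted p = 0.597). MT1G on 204745_x_at read 10.55 and 10.75 against 10.70 and 10.78, and the groups overlapped. Its log2 difference was -0.090 (SE 0.10, limma adjusted p = 0.759), and 0.0086 without CD133+ replicate 1.

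The 2 probe sets without the _x_at suffix were dim, below the array median on all 4 arrays, and they went opposite ways. For MT1G, 210472_at read 3.91 and 3.79 in the CD133+ clone against 3.50 and 3.34 in the CD133- clone. This was the only positive difference of the 11, at 0.43 (SE 0.15, limma adjusted p = 0.302), and the groups did not overlap. For MT1M, 217546_at read 3.37 and 3.59 against 4.14 and 3.84. Here the CD133+ arrays were lower, without overlap, by a log2 difference of -0.51 (SE 0.18, limma adjusted p = 0.297). No detection call was used here, so it is not known whether these 2 probe sets were above background.

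**Figure D2:**
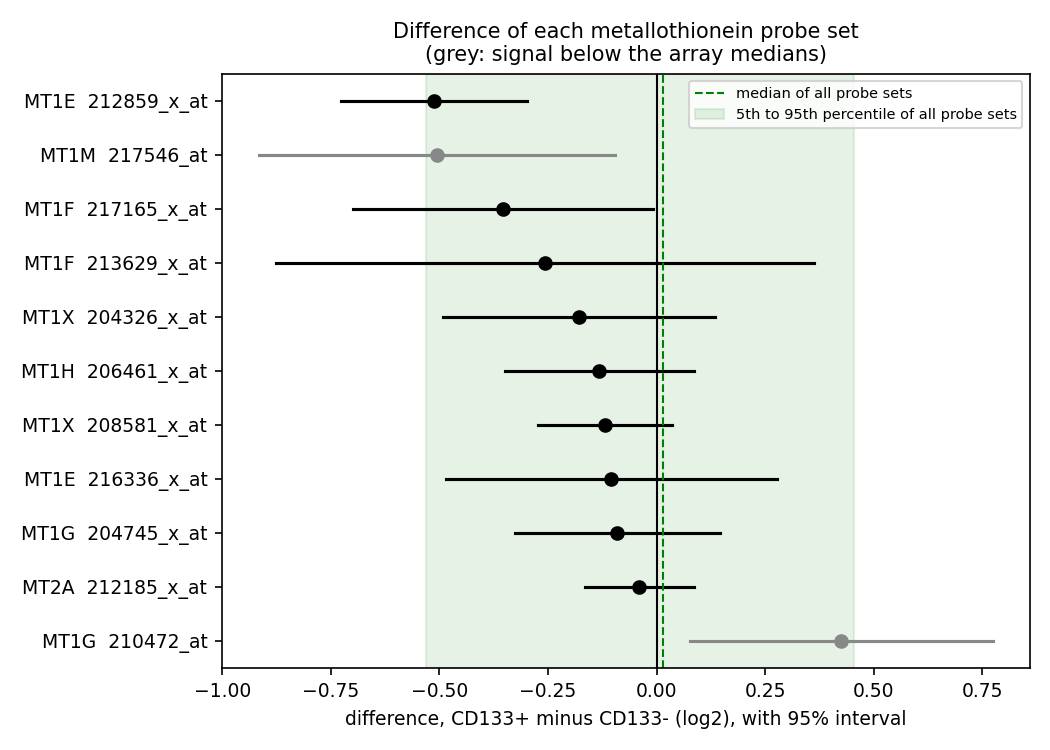
Log2 difference between the clones (horizontal axis, CD133+ minus CD133-) for the 11 probe sets, with 95% intervals from limma. Shading marks the 5th to 95th percentile of all probe sets (-0.53 to 0.46) and the dashed line their median (0.015). All 11 points lie inside the shaded range, and 10 lie to the left of 0.

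Over the 11 probe sets the 95% intervals reached from -0.92 (MT1M) to 0.78 (MT1G 210472_at). A 2-fold difference lay outside the interval under every alternative for 9 of the 11. The exceptions were MT1F 213629_x_at, whose interval reached -1.21 without CD133- replicate 1 and passed 2-fold lower in 3 of 11 alternatives, and MT1M, which reached -1.13 without CD133+ replicate 2 and did so in 2 of 10. A test against a 1.5-fold change called 0 of 11, with 0 at an unadjusted p under 0.05. Very few of all probe sets were called by this test (count given below), so 0 of 11 says little about the family.

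The arrays of each clone also differed between themselves. Among the 9 probe sets above the array medians, CD133+ replicate 1 was the lowest array in 8 and CD133- replicate 2 the highest in 7. In both clones replicate 2 exceeded replicate 1 in 8 of the 9, the exception being MT2A, while 51.8% of all probe sets were higher on replicate 2 for CD133+ and 51.3% for CD133-. The median gap between replicates over the 9 was 0.20 for CD133+ and 0.11 for CD133-. Gaps were widest for MT1F 213629_x_at, at 0.57 and 0.64, and narrow for MT2A, at -0.014 and -0.035. Leaving out CD133+ replicate 1 left 6 of 11 differences negative with a median of -0.047, and leaving out CD133+ replicate 2 gave 10 of 11 and a median of -0.34. Without CD133- replicate 1 there were 10 of 11 negative (median -0.21), and without CD133- replicate 2 there were 8 (median -0.067). Over all probe sets, 25454 to 26587 of 54613 were negative in these fits, with medians from 0.0081 to 0.023. The family's lean toward lower signal in CD133+ cells therefore varied in size with the array left out. It was slight without CD133+ replicate 1. Leaving out 1 array also unbalances the replicate numbers between the groups, where replicate 2 was mostly the higher in both clones. These fits cannot separate that imbalance from an unstable difference between the clones.

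**Figure D3:**
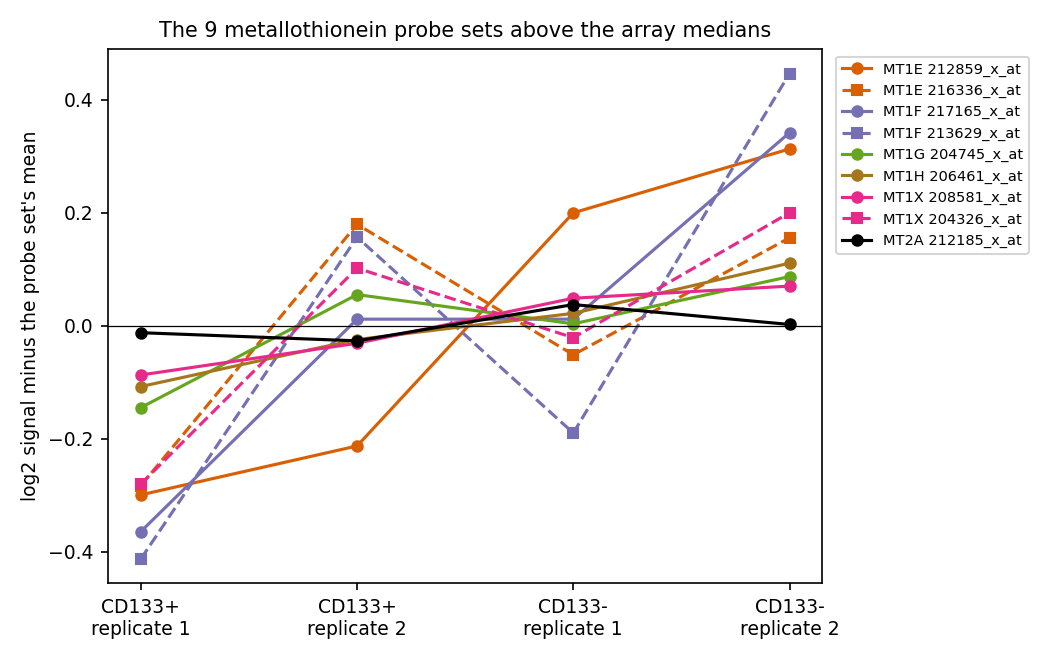
Log2 signal of the 9 metallothionein probe sets above the array medians, each minus its own mean over the 4 arrays (vertical axis). Lines join the values of 1 probe set and carry no order. Most probe sets are lowest on CD133+ replicate 1 and highest on CD133- replicate 2, whereas MT1E 212859_x_at is low on both CD133+ arrays and MT2A is nearly flat.

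Of the other metallothionein loci, 3 of 12 listed were named alone by a probe set. Of the 3, 0 passed limma's threshold (0.329% of all genes did) and 0 had an unadjusted p under 0.05 (15.9% of all genes). The probe set 211456_x_at names MT1HL1, an MT1H-like locus, and by its _x_at suffix it may also hold signal from other family members. It read 10.77 and 10.99 in the CD133+ clone against 10.76 and 10.88 in the CD133- clone, a log2 difference of 0.063 (SE 0.10, limma adjusted p = 0.845) whose sign turned to -0.021 with arrays centred on their medians. MT3, best known from the brain, had means of 5.06 and 5.08 in CD133+ and CD133- cells and a log2 difference of -0.025 (0.024 in the values as deposited). MT4, best known from stratified squamous epithelium, had 4.61 and 4.74 and a difference of -0.13. Both were near the array median of 4.53.

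The neighbourhood of the cluster was taken as the 10 annotated genes on each side, of which 10 of 20 were measured. None passed the threshold (0.329% of all genes did), with 0 at an unadjusted p under 0.05 (15.9% of all genes). Of the 10, 6 were positive and 4 negative. With so few genes, counts of 0 say little about the neighbourhood. Their log2 differences ran from -0.29 to 0.35, with a median of 0.035, against 0.047 over the brightest probe sets of all genes. In the same gene-by-gene view the 7 metallothioneins were all negative, with a median of -0.13, where 42.3% of genes were negative. With the mean over each gene's probe sets, MT1G was instead at 0.17.

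**Figure D4:**
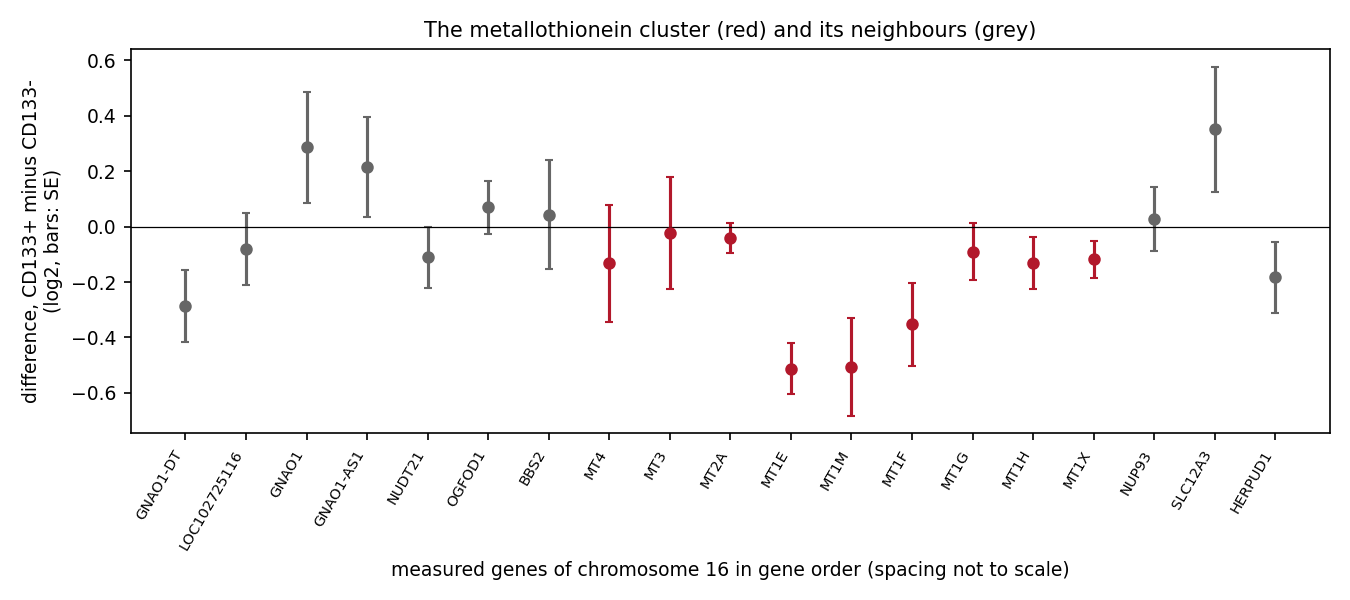
Log2 difference between the clones (vertical axis, CD133+ minus CD133-, bars show the SE) for the measured genes of the metallothionein cluster (red) and its neighbours on chromosome 16 (grey), each by its brightest probe set and in gene order. MT1E, MT1M and MT1F lie lowest, at -0.51, -0.51 and -0.35, and the neighbours lie on both sides of 0.

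Genes that sense metals or handle copper showed no call. Of the 15, 0 passed limma's threshold (0.329% of brightest probe sets of all genes did), 1 was higher and 1 lower at an unadjusted p under 0.05 (15.9% of all genes), and the median log2 difference was -0.058. MTF1, the zinc-sensing activator of metallothionein genes, read 7.58 and 7.07 in the CD133+ clone against 7.38 and 7.20 in the CD133- clone. The groups overlapped, and its log2 difference of 0.034 (SE 0.21, limma adjusted p = 0.963) changed sign to -0.14 without quantile normalization and to -0.22 after median centring. The smallest p-values belonged to SP1, a general zinc finger transcription factor, at 0.38 (SE 0.11, limma adjusted p = 0.239), where 2 of 4 probe sets had this sign, and to the copper transporter family member SLC31A2 at -0.61 (SE 0.21, limma adjusted p = 0.302).

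Zinc exporters move zinc out of the cytosol, and 0 of 10 passed in limma, with 1 higher and 2 lower at an unadjusted p under 0.05 (15.9% of all genes) and a median of 0.078. SLC30A1, which exports zinc across the plasma membrane and is a known MTF1 target, read 8.50 and 8.78 in the CD133+ clone against 8.90 and 9.13 in the CD133- clone. The groups did not overlap, and the log2 difference was -0.38 (SE 0.15, limma adjusted p = 0.369), although 1 of its 3 probe sets had the opposite sign. SLC30A7 and SLC30A5, which load zinc into the secretory pathway, had differences of 0.43 (SE 0.10, limma adjusted p = 0.160) and -0.55 (SE 0.16, limma adjusted p = 0.220), the latter negative in all 5 of its probe sets.

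Zinc importers bring zinc into the cytosol. Of 14, 0 passed in limma, while 6 were higher and 2 lower at an unadjusted p under 0.05 (15.9% of all genes), with a median of 0.072. This count of 8 depended on the scaling. It was 4 in the values as deposited and 2 with each array centred on its median, where the list median was -0.027. Over all probe sets, 6751 and 6339 of 54613 reached that level under these scalings. SLC39A10, a plasma membrane importer, had the largest difference of any gene in these lists. It read 6.08 and 6.18 in the CD133+ clone against 7.37 and 7.18 in the CD133- clone, without overlap, a log2 difference of -1.14 (SE 0.18, limma adjusted p = 0.0690). It passed in 2 of 11 alternatives, with a limma adjusted p from 0.0115 to 0.397 over them. SLC39A7, which releases zinc from the endoplasmic reticulum, was at 0.50 (SE 0.15, limma adjusted p = 0.238).

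Genes related to other inducers of metallothioneins were listed too. The glucocorticoid list held the receptor NR3C1, the cortisol-inactivating enzyme HSD11B2 and induced genes. Of 12 measured, 0 passed in limma, with 3 higher and 1 lower at an unadjusted p under 0.05 (15.9% of all genes) and a median of 0.23. The epithelial sodium channel subunit SCNN1A was at -0.80 (SE 0.13, limma adjusted p = 0.0740), although 1 of its 3 probe sets shared this sign, and ANGPTL4, an inhibitor of lipoprotein lipase, at 0.70 (SE 0.20, limma adjusted p = 0.215), a sign that 1 of its 2 probe sets had. SCNN1A passed in 4 of 11 alternatives. Its limma adjusted p ran from 0.00411 without CD133+ replicate 2 to 0.333 without CD133- replicate 1.

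The heat and metal stress list held chaperones, their partners and the activator HSF1. Of 10 measured, 0 passed in limma, with 2 higher and 2 lower at an unadjusted p under 0.05 (15.9% of all genes) and a median of 0.041. The mitochondrial chaperonin partners HSPD1 and HSPE1 were at -0.27 (SE 0.048, limma adjusted p = 0.0840) and -0.63 (SE 0.11, limma adjusted p = 0.0881). The sign was shared by 4 of 5 HSPD1 probe sets. Each passed in 3 of 11 alternatives, with a limma adjusted p from 0.0176 to 0.645 for HSPD1 and from 0.00204 to 0.333 for HSPE1, the lowest without CD133+ replicate 2 and the highest without CD133- replicate 1.

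The oxidative stress list held NFE2L2, which encodes NRF2, its inhibitor KEAP1 and NRF2 targets. Of 13 measured, 0 passed in limma, 1 was higher and 6 lower at an unadjusted p under 0.05 (15.9% of all genes), and the median was -0.22. NFE2L2 itself read 9.93 and 9.95 in the CD133+ clone against 10.62 and 10.57 in the CD133- clone. The groups did not overlap, and the log2 difference of -0.66 (SE 0.094) had a limma adjusted p of 0.0554. Its sign was shared by 2 of 3 probe sets. It passed in 6 of 11 alternatives, among them both fits without a CD133+ array (0.0199 and 0.0258, limma adjusted p), and did not pass in 5, with 0.105 as deposited, 0.0990 after median centring, 0.195 without trend, and 0.387 and 0.113 without CD133- replicates 1 and 2. SRXN1, sulfiredoxin, was at -0.52 (SE 0.11, limma adjusted p = 0.126).

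**Figure D5:**
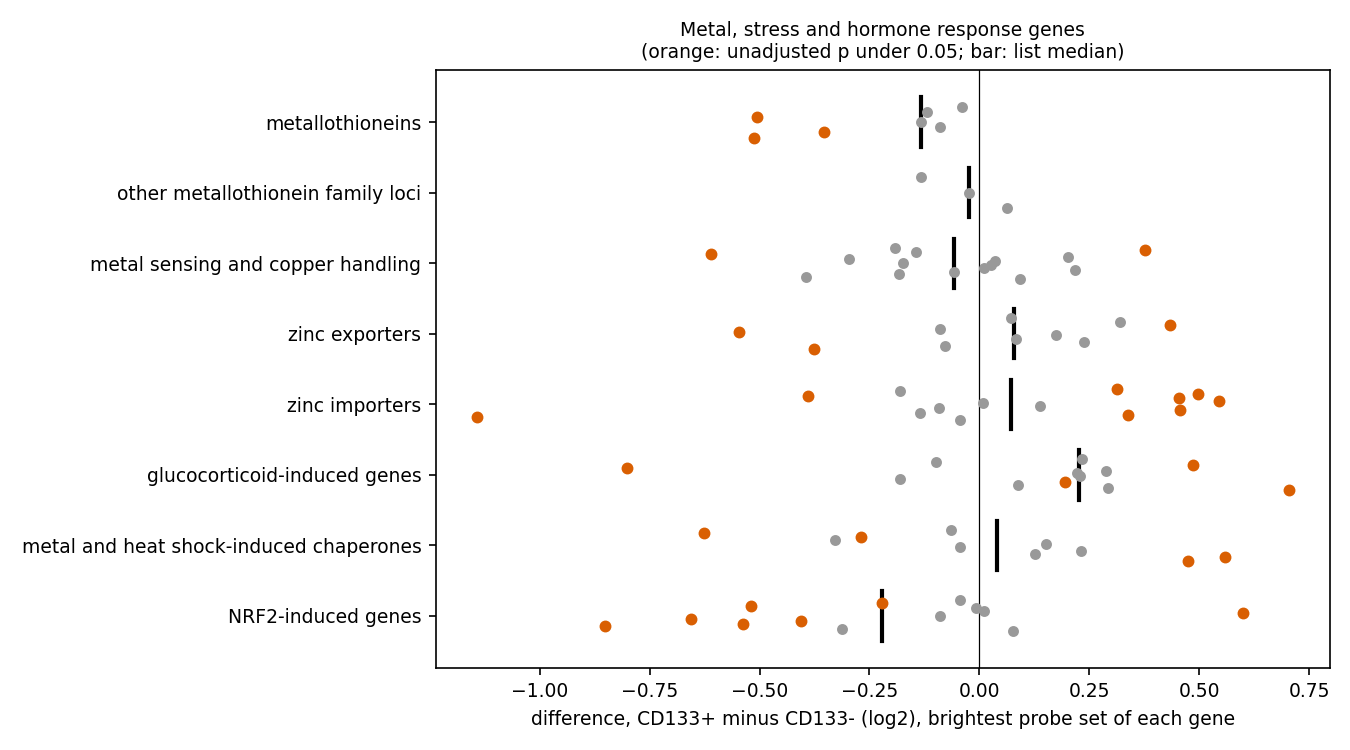
Log2 difference between the clones (horizontal axis, CD133+ minus CD133-) for the brightest probe set of each gene in the metallothionein list and 7 related lists. Orange points have an unadjusted limma p under 0.05, grey points do not, and black bars are list medians. Metallothioneins all lie left of 0 with a median of -0.13, zinc importers spread from -1.14 to 0.54, and NRF2-related genes have a median of -0.22.

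The genes with the pattern closest to the family over the 4 arrays were found by the Euclidean distance between centred log2 values, with the median of the 9 brighter metallothionein probe sets as the reference. Over the arrays in the order CD133+ replicates 1 and 2, CD133- replicates 1 and 2, this reference was -0.28, 0.011, 0.011 and 0.16. Among 12933 genes outside the family with a level at or above the median, the nearest were ATP11A (distance 0.0584), DEPDC5 (0.0592), CDK18 (0.0597), TMEM176B (0.0600) and R3HDML (0.0602), against a median distance of 0.472. The metallothionein probe sets themselves lay between 0.106 (MT1X 204326_x_at) and 0.405 (MT1F 213629_x_at) from it. With 4 arrays and 12933 candidates, close profiles are a description only.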

How the data were processed

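Each deposited array holds log2 signals, 1 per probe set, judged from the range of the values. Per the submitters' processing notes they came from Affymetrix Expression Console, and the version, background correction, normalization and summarisation are not given in the sources used here. Values of 54613 probe sets (62 controls left out) were quantile normalized, because array medians differed by 0.144, and no filter on level was applied. The clones were compared in R 4.3.3 with limma 3.58.1 (lmFit, eBayes with trend, prior degrees of freedom 5.65), with Benjamini-Hochberg adjustment over all probe sets and a threshold of 0.05. An exact permutation test of 2 against 2 arrays cannot give a p below 0.333, so the p-values rest on variance shared across probe sets. The median SE was 0.177, and the number of arrays limits the precision.

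Probe sets were named by the platform annotation (41091 name 1 gene, 1801 several, 11721 none). Listed genes are given by their brightest probe set that names them alone. Named were every metallothionein probe set, PROM1, MTF1, SLC30A1 and the 5 nearest profiles. In each metal, stress, hormone and epithelial list, none of which had a call, up to 2 genes with the smallest p were named. The other metallothioneins, GPA33, LGALS4, EPCAM and KRT18 were named after their values were seen. Members and lists were chosen with earlier results of these data known. The model was run on simulated data with independent noise and planted changes of 1 and 2 log2 units, larger than any metallothionein difference here. That run does not cover small differences or a correlation between same-numbered arrays. Alternatives were other scalings, filters, variance settings, thresholds, gene-level fits, the replicate number as a block, and leaving out each array. A gene-level fit without the lowest 20% of genes was added after seeing the data. Promoters came from RefSeq (GRCh38.p14), matched for 3 of the 7 genes.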

Additional observations from a re-analysis of the deposited data

How the results depend on the processing

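The count of metallothionein probe sets past the threshold was 0 as reported and 0 in the values as deposited, with centred arrays, with either filter on level, without trend, with robust settings, at 0.01 and against a 1.5-fold change. It ranged from 0 to 1 when 1 array was left out. At the gene level MT1E was the 1 call with brightest probe sets, where 2.70% of all genes were called. It was also the 1 call with the lowest 20% of genes left out, where 3.65% of 15820 genes were called. With the mean of probe sets there were 0, where 0.885% of all genes were called. The labels give both clones replicate numbers 1 and 2. Deviations of same-numbered arrays correlated at 0.399 over all probe sets (0.755 over the 11), but with 2 pairs and no shared origin in the labels the numbers were not taken as pairs. With the replicate number as a block 2 of 11 metallothionein probe sets were called, MT1E 212859_x_at (limma adjusted p = 0.0132) and MT1F 217165_x_at (0.0267). The count over all probe sets was 2554 of 54613. The block also called 4 of 13 NRF2-related genes, all lower, 3 of 14 zinc importers and 3 of 10 genes of the heat and metal stress list. It called 2 of 10 zinc exporters, 2 of 12 glucocorticoid-related genes and 2 of 13 epithelial markers. In the metal sensing and copper list it called 0 of 15. The share of all genes called by their brightest probe set with the block was not computed, so these counts are not a result about the lists. Of the 17 other genes named from the metallothionein, metal, stress and hormone lists, 10 passed with the block. Their limma adjusted p ran from 0.00921 (NFE2L2) to 0.0455 (ANGPTL4). All 10 had been named for the smallest p in their lists in these same data, so their passing is no separate support.

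The count over all probe sets was 99 as reported, 6 in the values as deposited, 32 with centred arrays, 337 with probe sets below the median level left out, 2 without trend, 152 with robust settings, 6 at 0.01, 7 against a 1.5-fold change, and 9 to 609 without 1 array at a time. The cause was not tested.

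Of 119 alternative values of the 11 probe sets, 110 kept their sign and their side of the threshold, 3 newly passed and 6 changed sign. With 1 array left out the log2 difference ranged from -0.37 to 0.014 for MT1X 204326_x_at, -0.19 to 0.0086 for MT1G 204745_x_at, -0.58 to 0.062 for MT1F 213629_x_at and -0.34 to 0.13 for MT1E 216336_x_at. All 4 were positive without CD133+ replicate 1 (0.030 for MT1F 213629_x_at), and the last 2 also without CD133- replicate 2 (0.0017 for MT1E 216336_x_at). Of the other named genes, MTF1 was at -0.14 as deposited and -0.22 after centring each array, and ranged from -0.22 to 0.28 with 1 array left out. MT3 was at 0.024 as deposited and ranged from -0.090 to 0.041, MT1HL1 was at -0.021 after centring and ranged from -0.049 to 0.18, and MT4 ranged from -0.27 to 0.0095.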

Other observations

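A comparison within each array, chosen after the values were seen, set MT1E 212859_x_at against the mean of the other 8 metallothionein probe sets above the array medians. Its log2 signal minus that mean was -0.11 and -0.28 in the CD133+ clone, against 0.20 and 0.12 in the CD133- clone. The CD133+ arrays lay below the CD133- arrays, with a difference of -0.35 between the group means. An exact permutation test of 2 against 2 arrays cannot give a p below 0.333. The mean of the other 8 probe sets was 10.54 and 10.81 in the CD133+ clone against 10.74 and 10.93 in the CD133- clone, so those groups overlapped.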
